A study of Mus musculus with 12 samples.

Results

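Gene expression was compared between brown adipose tissue (BAT) of ob/ob/Cidea-/-/Cidec-/- mice, called triple mutants here, and BAT of ob/ob mice. The comparison covered all 21651 genes with a symbol that the arrays measured, in 6 of the 12 arrays of the series, 3 titled ob/Cidea/Cidec BAT and 3 titled ob BAT. All mice were male, of strain C57, 4 months old and fed chow. Both genotypes were ob/ob, so no lean mice and no mice with leptin stood as controls, and the alleles were not limited to fat by any label. The other 6 arrays held white adipose tissue (WAT) of the same 2 genotypes and entered the same fit. The labels do not state that the 3 arrays of a group hold different mice; each p-value below therefore reflects variation among these arrays, and that variation could be technical.

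Brown adipocytes hold many small lipid droplets and many mitochondria, and burn fatty acids to make heat through the uncoupling protein Ucp1. Cidea and Cidec belong to the CIDE family, proteins at droplet contact sites that move lipid from small droplets into larger ones. The ob allele removes the hormone leptin, and brown fat of ob/ob mice is known for large droplets and low heat production. Skeletal muscle lies next to the brown fat pads of mice, and macrophages, fibroblasts and blood vessels are found within them.

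The values were log2 signals after RMA, so a difference of 1 is a doubling. The highest antigenomic control, a probe set matching no mouse gene, lay between 7.83 and 8.13 on the BAT arrays, and 19.5% to 25.2% of genes lay above it on an array. Brown fat genes were bright in both groups. Ucp1 averaged 12.3 ± 0.34 in triple mutant BAT and 11.7 ± 0.27 in ob/ob BAT (SD, n = 3 each), against 5.43 ± 0.69 in ob/ob WAT. Cox8b, a respiratory chain subunit of brown fat and muscle, averaged 12.5 in triple mutant BAT and 12.2 in ob/ob BAT, against 7.26 in ob/ob WAT. Zic1 and Lhx8, transcription factors that mark brown fat, were above the highest control on none of the 6 BAT arrays.

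Skeletal muscle transcripts varied between BAT arrays of the same genotype. The mean signal of 45 muscle genes was 9.46, 7.26 and 6.0 on triple mutant BAT arrays 1, 2 and 3, and 6.87, 9.96 and 9.71 on ob/ob BAT arrays 1, 2 and 3. Of these 45 genes, 40 were above the highest control on at least 1 BAT array. Acta1, skeletal muscle actin, was 12.23, 9.62 and 7.82 in triple mutant BAT and 9.5, 12.65 and 12.31 in ob/ob BAT. The groups overlapped, with triple mutant array 1 and ob/ob arrays 2 and 3 high and the other 3 arrays low. No muscle gene of the list was called between the genotypes, while the median difference over the list was -1.47 on the log2 scale. With the mean of the same 45 genes in the fit as a covariate the median was -0.01, which follows from how the covariate was made, and 3 of the 45 were called lower, Mylk4 among them at -1.37 (adjusted p = 0.0344). Without the covariate the list member with the smallest p was Mylk4, a muscle myosin kinase, with a difference of -2.58 ± 0.87 (SE; adjusted p = 0.0626, limma with Benjamini-Hochberg adjustment). Leaving out ob/ob BAT array 1 gave 9 muscle genes called lower, and leaving out triple mutant BAT array 1 gave 8. In a principal component analysis of the 6 arrays the first component, with 53.1% of the variance, separated the genotypes, and the second, with 26.1%, was negative on the 3 arrays with a high muscle mean and positive on the other 3.

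**Figure D1:**
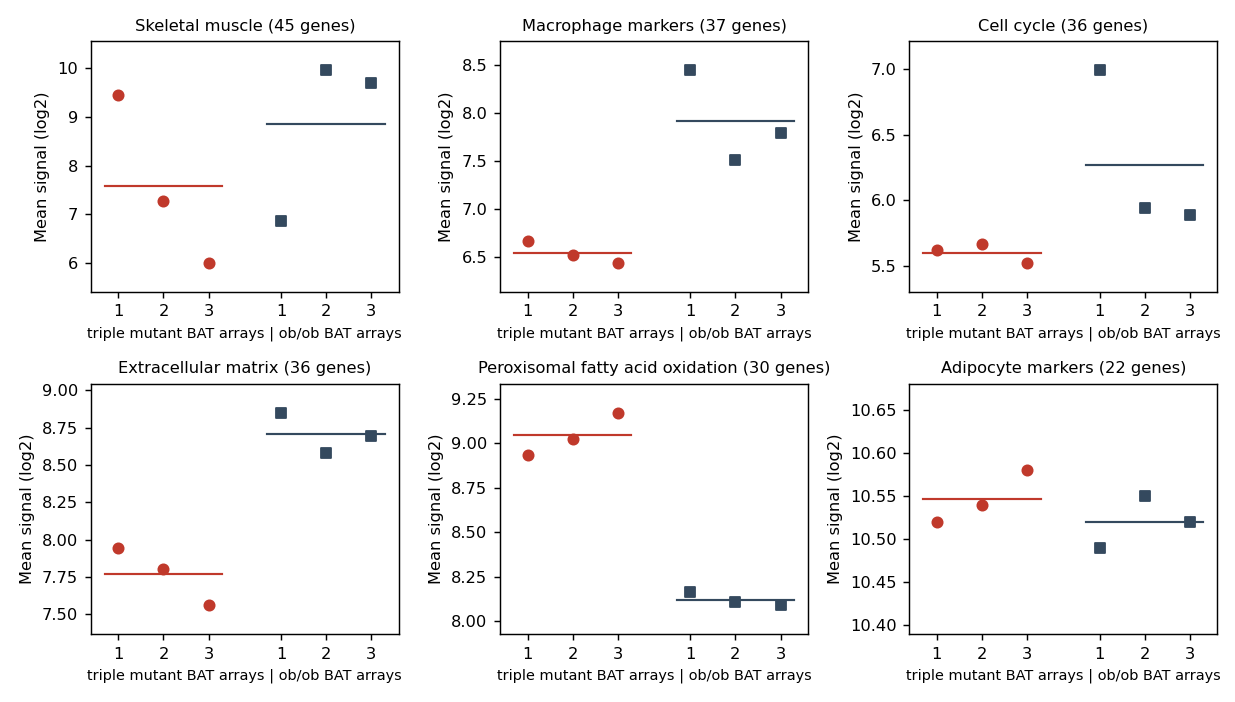
Mean RMA signal (log2) of 6 gene lists on each BAT array, with triple mutant arrays 1 to 3 (circles) left of ob/ob arrays 1 to 3 (squares) and a line at each group mean; each panel has its own vertical scale. Muscle genes overlapped between the genotypes, macrophage, matrix and peroxisomal genes did not, and ob/ob array 1 stood above ob/ob arrays 2 and 3 for cell cycle and macrophage genes.

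The genes named in the triple mutant genotype were read first. Cidea (chromosome 18, 67503258 to 67527432, build NCBIM37) had signals of 11.29, 11.39 and 11.29 in triple mutant BAT and 11.39, 11.44 and 11.51 in ob/ob BAT. The groups did not overlap, by a margin within the fit's error: the change was -0.13 ± 0.32 on the log2 scale (SE; adjusted p = 0.836, limma with Benjamini-Hochberg adjustment over all 21651 genes). Cidec (chromosome 6, 113374628 to 113385749) had signals of 10.81, 10.83 and 10.79 in triple mutant BAT and 10.59, 11.12 and 11.03 in ob/ob BAT, a change of -0.11 ± 0.16 (adjusted p = 0.702). Its groups overlapped. The sources used here do not say which exons the alleles remove or where the probes lie relative to them, so these signals check neither the labels nor the loss of either protein. Cideb, the third CIDE gene, had signals of 8.14, 8.33 and 7.55 in triple mutant BAT and 7.73, 6.94 and 7.26 in ob/ob BAT, and was not called (0.70 ± 0.28, adjusted p = 0.111).

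Between the genotypes 3760 genes were called in BAT, meaning an adjusted p under 0.05, which is 17.4% of those tested. Of these, 2251 (10.4% of all genes) rose and 1509 (6.97%) fell in triple mutant BAT. The change was at least 1 on the log2 scale for 268 of the genes that rose and at least that large for 309 of those that fell. The median change over all genes was -0.03. With the muscle mean as a covariate 3663 genes were called, of which 3107 were also called without it. Leaving out triple mutant BAT array 3 gave 2466 called genes, 879 of them lower, and leaving out triple mutant BAT array 2 gave 958 lower ones. Groups of BAT arrays did not overlap for 35.5% of genes. Of the called genes, 1628 had no BAT array above the highest control, and for genes below it in a group a log2 change is no estimate of a fold.

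**Figure D2:**
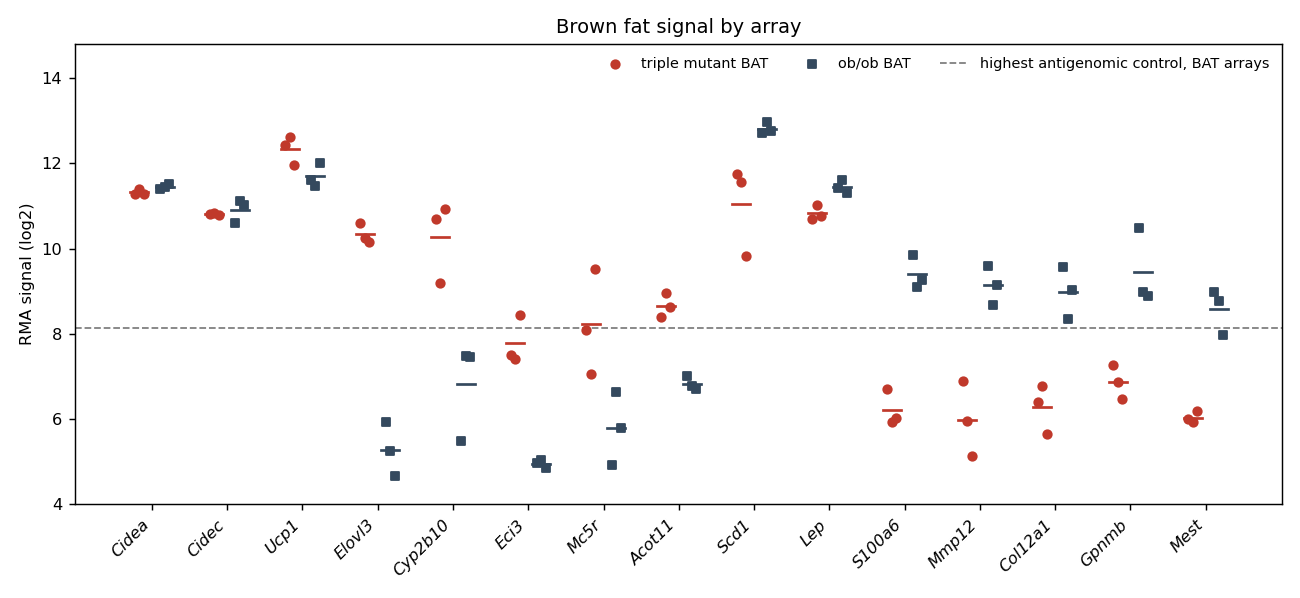
RMA signal (log2) of 15 genes on the BAT arrays, triple mutant (circles) left of ob/ob (squares), with a line at each group mean and a dashed line at the highest antigenomic control of the BAT arrays (8.13). Cidea and Cidec lay near 11 in both genotypes, Elovl3 lay above 10 in triple mutants and below 6 in ob/ob, and S100a6, Mmp12, Col12a1, Gpnmb and Mest lay below the control in triple mutants.

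The largest rise was that of Elovl3 (chromosome 19, 46206389 to 46210184), an elongase of long saturated fatty acids that is typical of active brown fat. Its signals were 10.61, 10.25 and 10.16 in triple mutant BAT and 5.94, 5.25 and 4.67 in ob/ob BAT. All 3 ob/ob arrays were below the highest control, so the difference was at least 5.01-fold, against the highest control of each ob/ob array. The log2 change was 5.05 ± 0.27 (adjusted p = 1.13e-05). Cyp2b10, a cytochrome P450 of drug and fatty acid oxidation, had signals of 10.69, 9.21 and 10.92 in triple mutant BAT and 5.5, 7.48 and 7.47 in ob/ob BAT. It was also not above the control in ob/ob BAT, and at least 4.78-fold higher in triple mutants (3.46 ± 0.57, adjusted p = 0.00263). Cyp2e1, another cytochrome P450, changed by 2.76 ± 0.77 (adjusted p = 0.03) from a wider spread, with 11.11, 10.13 and 11.68 in triple mutant BAT and 9.06, 8.47 and 7.11 in ob/ob BAT. Its call was lost with the muscle covariate, without ob/ob BAT array 2 or 3 and without triple mutant BAT array 1 or 3.

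Also among the 15 largest rises was Eci3, a peroxisomal enoyl-CoA isomerase. It had signals of 7.50, 7.42 and 8.45 in triple mutant BAT and 4.97, 5.05 and 4.86 in ob/ob BAT, and changed by 2.83 ± 0.32 (adjusted p = 0.000499). Eci3 was above the highest control on 1 triple mutant array and on no ob/ob array, so this change is no estimate of a fold. Echdc1, an enzyme that clears ethylmalonyl-CoA, had signals of 10.73, 10.82 and 11.10 in triple mutant BAT against 8.77, 9.23 and 8.61 in ob/ob BAT. All 6 of its values were above the control, and the rise was 4.03-fold (2.01 ± 0.18, adjusted p = 0.00024). Acsm3, a medium-chain acyl-CoA synthetase, rose by 2.15 ± 0.34, and Lipf, a lipase best known from the stomach, by 2.62 ± 0.45. Lipf was likewise above the highest control on 1 triple mutant BAT array and on no ob/ob BAT array. Mc5r, a melanocortin receptor, had signals of 8.10, 7.07 and 9.52 in triple mutant BAT and 4.92, 6.65 and 5.79 in ob/ob BAT. It was above the highest control on 2 triple mutant arrays and on no ob/ob array, and its call (2.45 ± 0.61, adjusted p = 0.0183) was lost without ob/ob BAT array 1 and without triple mutant BAT array 3. Hyal1, a hyaluronidase of lysosomes, had the smallest standard error among the 15 largest rises, at 1.90 ± 0.11, and was at least 2.89-fold higher. Hsd11b1, which regenerates active glucocorticoid, rose by 1.89 ± 0.41. Adtrp, a hydrolase of branched fatty acid esters, rose by 2.08 ± 0.29 and was at least 1.8-fold higher. Acot11, a thioesterase induced by cold in brown fat, rose by 1.83 ± 0.22 on its brighter probe set and changed by 0.31 (adjusted p = 0.128 over all probe sets) on its dimmer one, and by 1.07 with both averaged.

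Peroxisomal oxidation of fatty acids, which shortens very long and branched chains, was the list, among 46, with the largest share of members that rose. Of 30 members 26 rose and none fell, with a median change of 0.95, against 10.4% and -0.03 over all genes. The mean over the list was 8.94, 9.02 and 9.17 on the triple mutant BAT arrays and 8.16, 8.11 and 8.09 on the ob/ob BAT arrays, so the groups lay apart. Catalase (Cat), which breaks down the peroxide this pathway makes, had signals of 12.37, 12.50 and 12.48 in triple mutant BAT against 11.74, 11.61 and 11.63 in ob/ob BAT (0.79 ± 0.07, adjusted p = 0.000245). The transporters that bring acyl-CoA into the peroxisome also rose, Abcd3 by 1.18 ± 0.12 and Abcd2 by 1.21 ± 0.15 on the log2 scale. Hsd17b4, the multifunctional enzyme of branched chains, rose by 1.01 ± 0.13, and Ehhadh, its straight-chain counterpart, by 1.49 ± 0.37 (adjusted p = 0.0182), a call lost without ob/ob BAT array 3 or triple mutant BAT array 3. The count was 24 with the muscle covariate and no lower than 20 when any 1 BAT array was left out.

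Peroxins, the proteins that build peroxisomes and import their enzymes, rose in 12 of 18 cases, and none fell (66.7% higher, median 0.62). Of genes with a mean BAT signal of 8 to 9, where the list mean lay, 23.8% rose. Pex3, which starts the peroxisomal membrane, had signals of 9.66, 9.76 and 9.75 in triple mutant BAT and 8.72, 8.59 and 8.43 in ob/ob BAT (1.14 ± 0.09, adjusted p = 0.000164). Its partner Pex19, the chaperone of peroxisomal membrane proteins, had 10.32, 10.43 and 10.36 in triple mutant BAT against 9.52, 9.36 and 9.23 in ob/ob BAT. These groups did not overlap for either gene, and each change was close to a doubling. Pex16, the third factor of membrane formation, rose by 1.12 ± 0.16, and Pex7, the import receptor for the second targeting signal, by 1.02 ± 0.12. Leaving out any 1 BAT array left 11 or 12 peroxins called.

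Mitochondrial fatty acid oxidation rose in 22 of 27 members, and none fell (81.5% higher, median 0.72). Of genes with a mean BAT signal of 10 to 14, where the list mean lay, 24.6% rose. Slc25a20, the carnitine-acylcarnitine carrier of the inner membrane, had signals of 11.31, 11.40 and 11.23 in triple mutant BAT and 10.09, 10.14 and 10.16 in ob/ob BAT (1.18 ± 0.16, adjusted p = 0.00115). The acyl-CoA dehydrogenases Acad11 and Acad12 rose by 1.35 ± 0.16 and 1.36 ± 0.15, and Acadvl, which acts on very long chains, by 1.03 ± 0.19. Hadha, a subunit of the trifunctional protein, rose by 0.55 ± 0.12, and Acadm, the medium-chain dehydrogenase, by 0.53 ± 0.12. The carnitine palmitoyltransferases of the outer membrane, Cpt1b and Cpt1a, which start the entry of fatty acids into mitochondria, were not called. Cpt1b, the muscle and brown fat form, had 12, 12.11 and 12.02 in triple mutant BAT against 11.43, 11.51 and 11.72 in ob/ob BAT (0.49 ± 0.24, adjusted p = 0.198), and Cpt1a, the liver form, changed by 0.02 ± 0.25. Cpt1b, with groups that did not overlap, was called in a fit of the 6 BAT arrays alone (adjusted p = 0.023, limma). The count of 22 list members that rose was 14 without triple mutant BAT array 3.

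**Figure D3:**
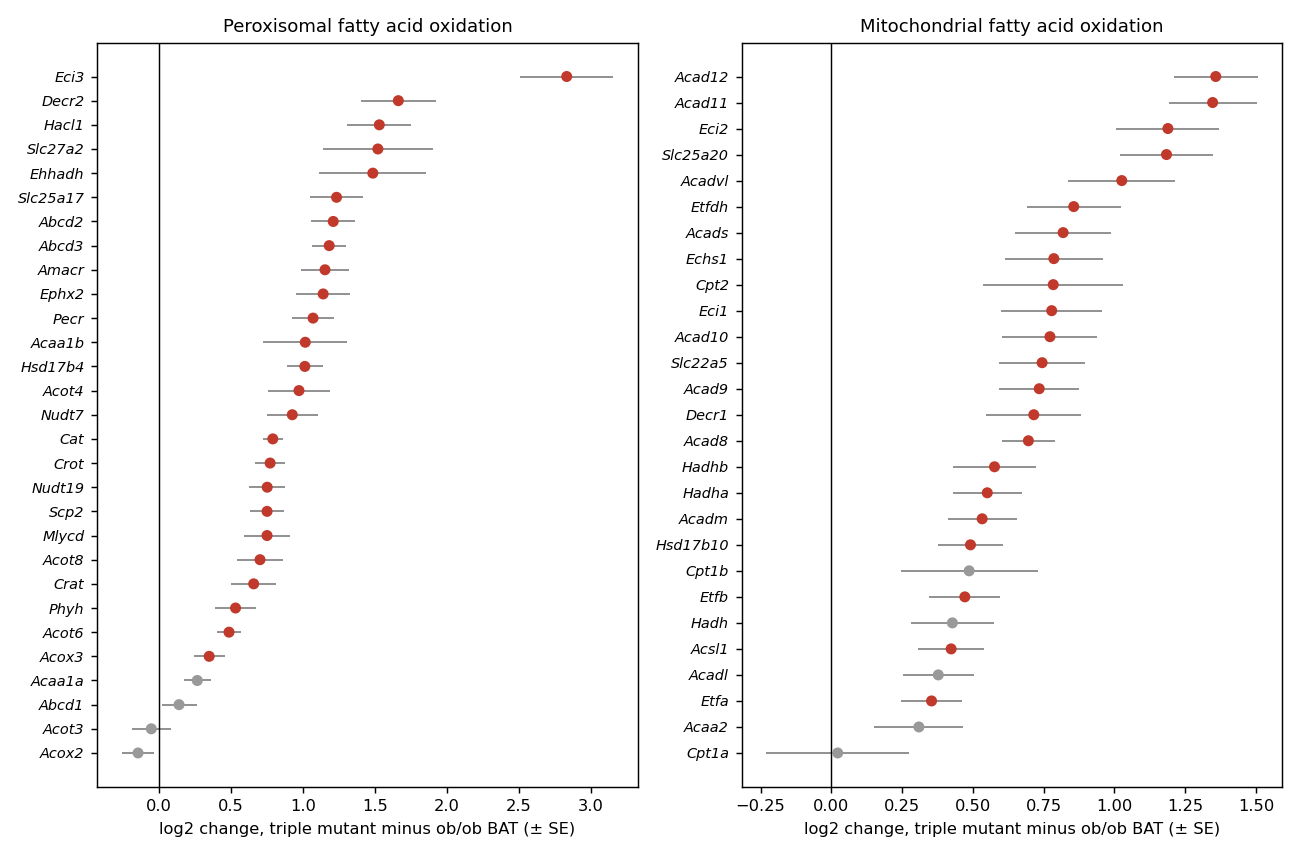
Log2 change, triple mutant minus ob/ob BAT, with its standard error, for the members shown of the lists of peroxisomal (left) and mitochondrial (right) fatty acid oxidation; red points are called and grey points are not. Eci3 has the largest change on the left, at 2.83, and Acad12 and Acad11 the largest on the right. Eci3 and Acad12 were each above the highest control on 1 triple mutant array and on no ob/ob array.

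Degradation of the branched-chain amino acids, which feeds the same mitochondrial pool of acyl-CoA, rose in 17 of 22 members, with none lower (77.3% higher, median 0.77). Of genes with a mean BAT signal of 9 to 10, where the list mean lay, 27.1% rose. Mccc1, a carboxylase of leucine breakdown, had signals of 9.97, 10.03 and 10.17 in triple mutant BAT and 8.56, 9.0 and 8.59 in ob/ob BAT (1.34 ± 0.18, adjusted p = 0.000859). Hibch and Hibadh of valine breakdown rose by 1.27 ± 0.21 and 0.81 ± 0.11. Pcca, a propionyl-CoA carboxylase subunit, rose by 1.14 ± 0.17. In the TCA cycle and pyruvate list 13 of 32 members rose and 2 fell (40.6% and 6.25%, median 0.39). Of genes with a mean BAT signal of 10 to 14, where the list mean lay, 24.6% rose and 10.2% fell. Pdp2, a phosphatase that switches pyruvate dehydrogenase on, rose by 1.41 ± 0.15, Mpc2, a subunit of the mitochondrial pyruvate carrier, by 1.22 ± 0.18, and Suclg2, a succinyl-CoA synthetase subunit, by 1.16 ± 0.16. Without ob/ob BAT array 1, and likewise without triple mutant BAT array 3, 7 members of this list rose, and 8 rose without triple mutant BAT array 2.

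The number of respiratory chain subunits called depended on single arrays. Complex I rose in 24 of 37 measured subunits (64.9%), against 24.6% of genes with a mean BAT signal of 10 to 14. All 37 changes of complex I were positive, with a median of 0.48. Ndufs1, a core subunit, had signals of 11.09, 11.13 and 11.31 in triple mutant BAT and 10.34, 10.64 and 10.66 in ob/ob BAT (0.63 ± 0.12, adjusted p = 0.00532). The count was 13 without ob/ob BAT array 1 and 12 without triple mutant BAT array 3. Complexes II and III rose in 10 of 14 members (71.4%, median 0.41), among them Sdhd by 0.72 ± 0.11 and Uqcrfs1, the Rieske subunit, by 0.94 ± 0.17. Without ob/ob BAT array 1, and likewise without triple mutant BAT array 3, 2 of these were called, and without triple mutant BAT arrays 1 and 2 in turn, 5 and 4. In complex IV 9 of 22 rose and 1 fell (40.9% and 4.55%, median 0.35). Of genes with a mean BAT signal of 9 to 10, 27.1% rose and 9.65% fell. The members with the smallest p were mostly assembly factors, Sco1 (0.79 ± 0.11), Cox15 (0.47 ± 0.08), Cox17 (1.03 ± 0.19) and Surf1 (0.55 ± 0.11). Sco1 was above the highest control on no BAT array. The number of complex IV members that rose was 5 without ob/ob BAT array 1, triple mutant BAT array 2 or triple mutant BAT array 3. ATP synthase rose in 6 of 18 members and fell in 2 (33.3% and 11.1%, median 0.25). Among genes with a mean BAT signal of 10 to 14, where the list mean lay, 24.6% rose and 10.2% fell. Of the ATP synthase members 1 rose without ob/ob BAT array 1 and 2 or 3 without any 1 triple mutant BAT array. Atpif1, the inhibitor of ATP synthase, was one of the members that fell, with 9.46, 9.39 and 9.23 in triple mutant BAT against 10.85, 10.03 and 10.07 in ob/ob BAT (-0.95 ± 0.19, adjusted p = 0.00645).

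Heat production genes moved unevenly. Of 33 genes of the thermogenic list 15 rose (45.45%) and none fell (median 0.52), and Ucp1 itself was not among those that rose. Of genes with a mean BAT signal of 8 to 9, where the list mean lay, 23.8% rose. Ucp1 (chromosome 8, 85814251 to 85822351) had signals of 12.43, 12.62 and 11.96 in triple mutant BAT and 11.62, 11.47 and 12 in ob/ob BAT, overlapping by 1 array (0.64 ± 0.67, adjusted p = 0.562). That error includes the spread of the WAT arrays, where the SD of Ucp1 was 1.77 in triple mutants. In a fit of the 6 BAT arrays alone Ucp1 was not called either, with an adjusted p of 0.0765 (limma). Dio2, which activates thyroid hormone and responds to cold, had 8.26, 7.86 and 6.0 in triple mutant BAT and 7.07, 6.83 and 8.14 in ob/ob BAT, with the groups fully intermixed (0.03 ± 0.52, adjusted p = 0.98). Ucp3, a mitochondrial carrier that follows fatty acid supply in muscle and brown fat, had 9.70, 9.70 and 9.41 in triple mutant BAT against 7.88, 8.11 and 7.84 in ob/ob BAT (1.66 ± 0.16, adjusted p = 0.000245). Letmd1 and Letm1, inner membrane proteins, rose by 0.91 ± 0.12 and 1.04 ± 0.13. Adrb3, the beta adrenergic receptor of adipocytes, had 10.13, 10.02 and 10.48 in triple mutant BAT against 8.28, 8.57 and 9.67 in ob/ob BAT. It did not pass the test despite groups that did not overlap (1.37 ± 0.53, adjusted p = 0.102), and was called in a fit of the 6 BAT arrays alone.

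Among the regulators of these pathways, Ppara, the fatty acid receptor that drives oxidation genes, had signals of 10.66, 10.98 and 10.72 in triple mutant BAT and 9.81, 9.23 and 10.18 in ob/ob BAT. The rise of 1.05 ± 0.33 lay at the edge of the threshold (adjusted p = 0.0471). It was lost with the muscle covariate and without any 1 BAT array other than ob/ob array 3. Ppargc1a, the coactivator of mitochondrial genes, was not called (0.38 ± 0.31, adjusted p = 0.441), nor was Pparg, the adipocyte master regulator (0.08 ± 0.13, adjusted p = 0.752). In the list of PPARs, RXRs and coactivators 4 of 23 members rose and 2 fell (17.4% and 8.70%, median 0.18). Over all genes the shares were 10.4% and 6.97%. Among genes with a mean BAT signal of 8 to 9, where the list mean lay, they were 23.8% and 8.25%. No member of the list rose without ob/ob BAT array 1 or 2 or without triple mutant BAT array 1 or 2. Without triple mutant BAT array 3, 2 members rose, and 2 fell in each of these fits. The members that fell were the coactivators Ncoa3, by 0.63 ± 0.13 (adjusted p = 0.00708), and Pprc1, by 0.50 ± 0.09 (adjusted p = 0.00447). Pprc1 was above the highest control on no BAT array. Esrra and Ppargc1b rose by 0.39 ± 0.12 and 0.51 ± 0.15 (adjusted p = 0.0466 and 0.038). Esrra lost its call without ob/ob BAT array 1 or 2 and without triple mutant BAT array 1 or 2, and Ppargc1b lost it in these and without triple mutant BAT array 3. Neither Esrra nor Ppargc1b was called in a fit of the 6 BAT arrays alone (adjusted p = 0.0681 and 0.0673, limma). With genotype and number as a random replicate block the adjusted p of Esrra was 0.0549. Of 37 PPAR alpha targets 13 rose and 1 fell (35.1% and 2.70%, median 0.38), against 23.8% and 8.25% of genes with a mean BAT signal of 8 to 9. Acot2, a mitochondrial thioesterase, rose 3.03-fold.

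Of 20 lipid droplet genes 7 rose (35%) and none fell (median 0.38), against 27.1% higher among genes with a mean BAT signal of 9 to 10. Of these 20 genes 4 were called without ob/ob BAT array 2, triple mutant BAT array 1 or triple mutant BAT array 2. Plin5, the perilipin of oxidative tissues, had signals of 9.51, 9.72 and 9.38 in triple mutant BAT and 8.56, 8.24 and 8.82 in ob/ob BAT (1.0 ± 0.18, adjusted p = 0.00427). Bscl2, the seipin gene needed for droplet formation, rose by 0.77 ± 0.14, Ldah, a droplet hydrolase, by 0.81 ± 0.12, and Rab18, a small GTPase of droplets, by 0.71 ± 0.12. Plin2, the perilipin of small droplets, overlapped between groups, with 11.94, 12.03 and 11.73 in triple mutant BAT and 11.73, 10.87 and 11.28 in ob/ob BAT. Its rise of 0.60 ± 0.17 (adjusted p = 0.0311) was 0.39 without ob/ob BAT array 2 and was no longer called there. The call was also lost without ob/ob BAT array 3, without triple mutant BAT array 1 or 2, and with the muscle covariate. Plin2 was not called either in a fit of the 6 BAT arrays alone (adjusted p = 0.1, limma). Plin1, the perilipin of large droplets, was not called (0.45 ± 0.17, adjusted p = 0.1). In a fit of the 6 BAT arrays alone Plin1 was called (adjusted p = 0.0275, limma). The triglyceride lipases Pnpla2 and Lipe changed by 0.03 ± 0.14 and 0.12 ± 0.18 and were not called. Of 21 lipolysis genes 5 rose (23.8%), against 10.4% of all genes and 27.1% of the genes with a mean BAT signal of 9 to 10, where the list mean lay. They included the protein kinase A subunit genes Prkar2b (0.69 ± 0.12) and Prkaca (0.66 ± 0.16) and the phosphodiesterase gene Pde3b (0.72 ± 0.14), with 2 called without ob/ob BAT array 3 or triple mutant BAT array 2 and 3 without triple mutant BAT array 3. In the first pair of these fits Prkaca lost its call.

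Of 30 genes that build fatty acids and triglycerides, 11 rose and 1 fell (36.7% and 3.33%, median 0.39). Of genes with a mean BAT signal of 9 to 10, where the list mean lay, 27.1% rose and 9.65% fell. The member that fell was Scd1, the desaturase that makes oleate. Its signals were 11.74, 11.56 and 9.82 in triple mutant BAT and 12.71, 12.96 and 12.75 in ob/ob BAT, with triple mutant array 3 the lowest (-1.77 ± 0.40, adjusted p = 0.0117). Without that array the change was -1.16. Genes of triglyceride assembly were among those that rose. Agpat2 had 12.39, 12.58 and 12.19 in triple mutant BAT against 11.43, 11.37 and 11.54 in ob/ob BAT, Gpat3 rose by 1.23 ± 0.18, and Gk, which phosphorylates glycerol, by 1.44 ± 0.23. Fasn and Acaca, which build fatty acids from acetyl-CoA, were not called (0.31 ± 0.28 and 0.02 ± 0.29). Without triple mutant BAT array 2 or array 3, 6 members of the list rose, and without ob/ob BAT array 3, 7 did. In the elongation list Elovl1, an elongase of very long chains, fell by 0.93 ± 0.15, and Hsd17b12, the reductase shared by all elongases, rose by 1.2 ± 0.12.

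Cholesterol synthesis rose in 9 of 25 members, with none lower (36% higher, median 0.30). Of genes with a mean BAT signal of 7 to 8, where the list mean lay, 17.6% rose. Insig1, the sterol-responsive brake of the pathway, had signals of 10.96, 11.09 and 11.29 in triple mutant BAT and 9.64, 9.80 and 9.75 in ob/ob BAT (1.38 ± 0.14, adjusted p = 0.000297). Hmgcs1, the HMG-CoA synthase of the pathway, had 10.98, 11.05 and 10.80 in triple mutant BAT against 10.03, 9.05 and 9.92 in ob/ob BAT (1.27 ± 0.20, adjusted p = 0.00233). Nsdhl, a later enzyme, rose by 1.08 ± 0.17.

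The promoters of 2 genes that rose are shown because each held a match to TCACNCCAC, a sterol response element, searched on both strands in 300 bases around the gene start (RefSeq, build GRCm38.p6; capitals mark the match). They are Hmgcs1 at chr13:119690101-119690400 on the plus strand and Cyp2b10 at chr7:25897408-25897707 on the plus strand, the second with the match on the opposite strand.
Hmgcs1: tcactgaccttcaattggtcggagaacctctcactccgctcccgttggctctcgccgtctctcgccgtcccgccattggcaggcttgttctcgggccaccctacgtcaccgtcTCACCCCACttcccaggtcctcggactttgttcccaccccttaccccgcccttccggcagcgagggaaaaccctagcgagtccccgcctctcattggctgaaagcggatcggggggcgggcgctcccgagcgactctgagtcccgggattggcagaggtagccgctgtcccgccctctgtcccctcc
Cyp2b10: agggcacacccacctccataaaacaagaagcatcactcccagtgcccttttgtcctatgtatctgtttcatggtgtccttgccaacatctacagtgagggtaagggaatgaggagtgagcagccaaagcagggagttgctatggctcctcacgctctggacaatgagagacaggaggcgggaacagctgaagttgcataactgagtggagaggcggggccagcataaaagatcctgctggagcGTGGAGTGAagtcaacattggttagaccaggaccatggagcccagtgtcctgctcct
This motif stood in 3.15% of the 127 promoters found for named genes that rose, which is 4 promoters (the others were those of Echdc1 and Hyal1), and in 4.48% of the 67 found for named genes that fell, which is 3, against 1.24% of all 32851 promoters. The cAMP response element TGACGTCA stood in 2.36% and 1.49% of these promoters and in 1.79% of all. The core of the interferon-stimulated response element stood in 1.57% and 0% of them and in 3.44% of all, and the direct repeat element of PPAR in none of them and in 0.0396% of all. Neither printed promoter held any of the other 3 motifs. A match describes the letters in this window only.

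The largest fall was that of S100a6, a calcium-binding protein of fibroblasts and other dividing cells, with signals of 6.70, 5.95 and 6.03 in triple mutant BAT and 9.84, 9.10 and 9.27 in ob/ob BAT. No triple mutant array was above the highest control, so the signal was at least 2.69-fold lower (-3.18 ± 0.22, adjusted p = 7.56e-05). Mmp12, the macrophage elastase, had 6.89, 5.96 and 5.13 in triple mutant BAT against 9.59, 8.68 and 9.16 in ob/ob BAT, at least 2.25-fold lower. Gpnmb, a glycoprotein of lipid-laden macrophages, had 7.28, 6.87 and 6.48 in triple mutant BAT against 10.48, 8.99 and 8.89 in ob/ob BAT, at least 2.79-fold lower. Both sets of arrays lay apart, and ob/ob array 1 was the highest for each of these 3 genes. Lgals3, a galectin of macrophages, fell by 2.35 ± 0.37, and Ccl9, a chemokine of myeloid cells, by 2.37 ± 0.38. Cd52, a surface glycoprotein of leukocytes, and Tlr13, a receptor for bacterial RNA, fell by 2.35 ± 0.47 and 2.38 ± 0.47, each with no triple mutant array and 1 ob/ob array above the control. Prnd, a prion-like protein gene, fell by 2.29 ± 0.22 on its brighter probe set and changed by -0.01 on the other, or -1.15 with both averaged.

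Macrophage markers fell in 28 of 37 members and none rose, with a median change of -1.44, against 6.97% lower and a median of -0.03 over all genes. The list mean was 6.67, 6.52 and 6.44 on the triple mutant BAT arrays and 8.45, 7.52 and 7.80 on the ob/ob BAT arrays, so the groups did not overlap. Csf1r, the receptor of macrophage growth factor, had 7.32, 7.47 and 7.86 in triple mutant BAT against 9.57, 8.99 and 8.98 in ob/ob BAT (-1.63 ± 0.16, adjusted p = 0.000265). Mrc1, the mannose receptor of resident macrophages, had 7.67, 7.51 and 7.43 in triple mutant BAT against 9.19, 8.93 and 8.81 in ob/ob BAT (-1.44 ± 0.11, adjusted p = 0.000112). Itgax, an integrin of inflammatory macrophages and dendritic cells, fell by 2.05 ± 0.39, and the general markers Adgre1 and Cd68 by 1.67 ± 0.27 and 1.94 ± 0.35. Without ob/ob BAT array 1, the array with the highest list mean, 26 of the 37 markers fell, and with the muscle covariate 29 did. In whole tissue, fewer cells of a type and less RNA per cell cannot be told apart.

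The complement gene C1qb, made largely by macrophages, had signals of 8.67, 8.48 and 8.59 in triple mutant BAT against 10.57, 9.87 and 9.76 in ob/ob BAT (-1.49 ± 0.17, adjusted p = 0.000499). Of 25 complement genes 10 fell and 2 rose (40% and 8%), against 8.17% and 17.6% of genes with a mean BAT signal of 7 to 8. C3, the central component and also a product of adipocytes, was one that rose, with 11.28, 11.23 and 11.85 in triple mutant BAT and 10.52, 10.33 and 10.66 in ob/ob BAT (0.95 ± 0.15, adjusted p = 0.00217). The other was Cfd, the adipocyte protease adipsin, at 1.14 ± 0.32 (adjusted p = 0.0305), whose call was lost without any 1 BAT array other than ob/ob array 3. Antigen presentation genes fell in 8 of 19 cases (42.1%) and none rose. Of genes with a mean BAT signal of 8 to 9, where the list mean lay, 8.25% fell. H2-Eb1 of MHC class II had 8.33, 8.38 and 8.41 in triple mutant BAT against 9.86, 9.62 and 9.72 in ob/ob BAT, and its chaperone Cd74 fell by 1.37 ± 0.17. Without ob/ob BAT array 1 or array 3, 5 genes of this list fell. Cytokines and chemokines fell in 9 of 36 members (25%), against 7.32% of genes with a mean BAT signal of 5 to 6. The members that fell included Csf1 (-1.07 ± 0.13), above the highest control on no BAT array, and Ccl6 (-2.03 ± 0.37). In this list 4 fell without triple mutant BAT array 2, 5 without triple mutant BAT array 3 and 14 without ob/ob BAT array 2. Markers of T, B and NK cells were above the highest control on no BAT array. Of 24 such markers 2 were called lower (8.33%, against 6.97% of all genes), Thy1, which fibroblasts also express, and Il7r. Of 37 interferon response genes 2 rose (5.41%, against 10.4% of all genes), Ifi27 among them, by 0.68 ± 0.15.

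Extracellular matrix genes fell in 24 of 36 members (66.7%), against 8.25% of genes with a mean BAT signal of 8 to 9. None of the list rose, and all 36 changes were negative (median -0.87). The list mean was 7.94, 7.80 and 7.56 in triple mutant BAT and 8.85, 8.58 and 8.70 in ob/ob BAT. Col12a1, a fibril-associated collagen, had 6.41, 6.78 and 5.65 in triple mutant BAT against 9.58, 8.35 and 9.03 in ob/ob BAT, at least 2.01-fold lower (-2.71 ± 0.35, adjusted p = 0.000852). Col3a1, a fibrillar collagen, had 8.27, 7.89 and 7.94 in triple mutant BAT and 9.25, 8.95 and 9.16 in ob/ob BAT, a fall by 1.08 ± 0.13. The fibrillar collagen Col1a1 fell by 1.27 ± 0.22, the microfibrillar Col6a3 by 1.26 ± 0.16, and fibronectin (Fn1) by 1.41 ± 0.26. Leaving out any 1 BAT array left 21 to 25 members called lower. Against 8.17% of genes with a mean BAT signal of 7 to 8, fibroblast and preadipocyte markers fell in 11 of 21 members (52.4%), and none rose. Among them, Dpt, a matrix protein of fibroblasts, had 10.33, 10.21 and 10.21 in triple mutant BAT against 11.30, 11.71 and 11.34 in ob/ob BAT (-1.2 ± 0.11, adjusted p = 0.000245).

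**Figure D4:**
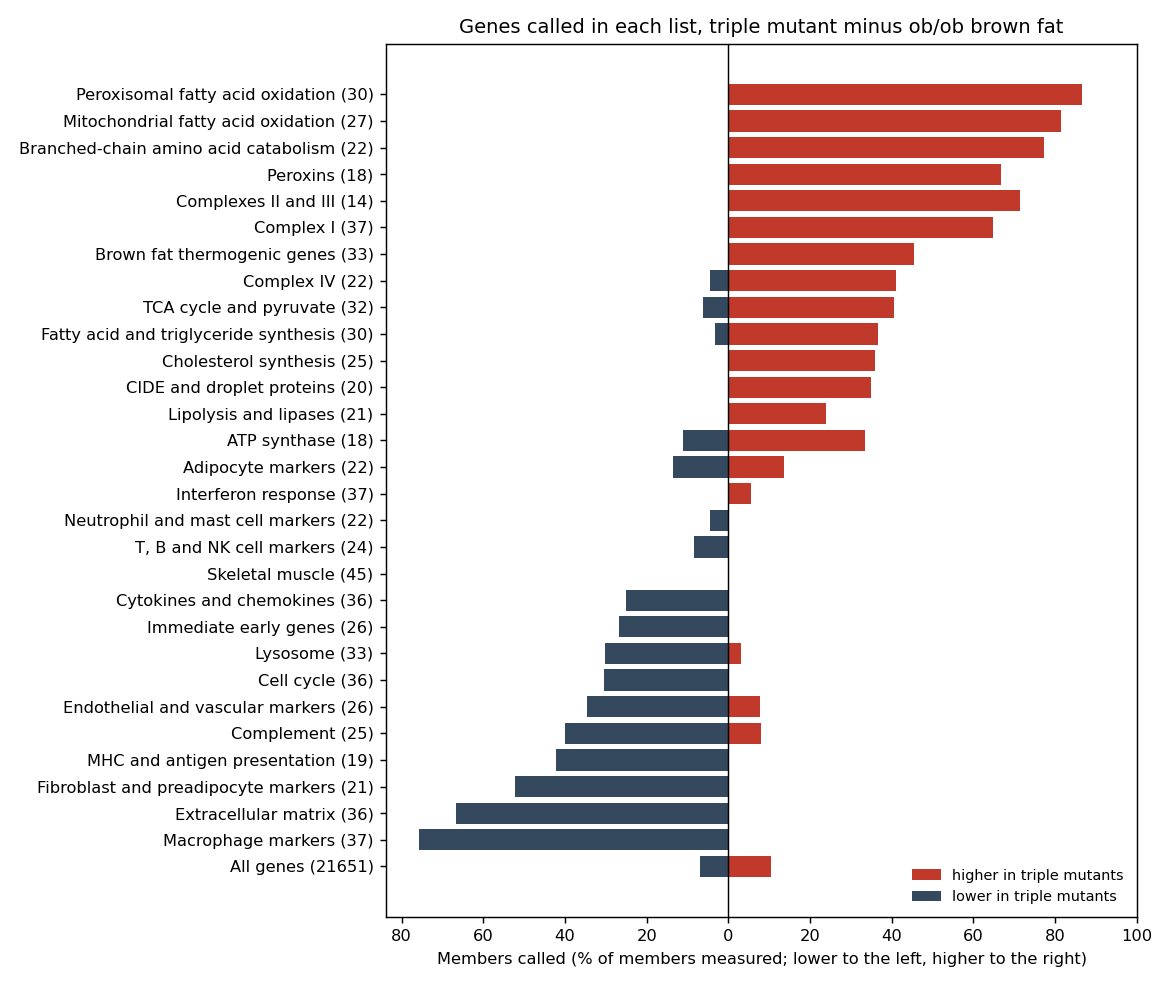
Share of measured members called in 29 gene lists and over all genes, with members higher in triple mutant BAT to the right and members lower to the left; the number measured stands in brackets. Oxidation and peroxisome lists lie far to the right, macrophage and matrix lists far to the left, and no skeletal muscle gene was called.

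Most changes of vascular markers were negative, with 4 of 26 positive and a median of -0.38. Of these 26 genes 9 fell and 2 rose (34.6% and 7.69%). Among genes with a mean BAT signal of 8 to 9, where the list mean lay, 8.25% fell and 23.8% rose. Kdr, the main receptor for vascular endothelial growth factor, had signals of 9.42, 9.29 and 9.63 in triple mutant BAT and 8.48, 8.50 and 8.70 in ob/ob BAT, a rise by 0.89 ± 0.16. Pecam1, a general endothelial marker, had 8.96, 8.73 and 8.78 in triple mutant BAT against 9.56, 9.41 and 9.36 in ob/ob BAT, a fall by 0.62 ± 0.15, and smooth muscle actin (Acta2) fell by 0.93 ± 0.20. Leaving out ob/ob BAT array 1, triple mutant BAT array 2 or triple mutant BAT array 3 left 4 genes lower, and Pecam1 was not among them. Immediate early genes fell in 7 of 26 members (26.9%), against 8.17% of genes with a mean BAT signal of 7 to 8. The members that fell included Myc (-0.86 ± 0.13) and Ccn2, a matricellular growth factor (-1.30 ± 0.26). Lysosomal genes fell in 10 of 33 members and 1 rose (30.3% and 3.03%, median -0.16). Of genes with a mean BAT signal of 9 to 10, where the list mean lay, 9.65% fell and 27.1% rose. Laptm5, a lysosomal protein of leukocytes, fell by 1.92 ± 0.27, and the protease genes Ctsk and Ctsc by 1.44 ± 0.27 and 0.90 ± 0.13. Ctsk was above the highest control on no BAT array. Of the lysosomal list, 6 members fell without triple mutant BAT array 2 or array 3.

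The number of cell cycle genes called varied with the arrays in the fit. Mki67, a marker of dividing cells, had signals of 5.63, 5.45 and 4.93 in triple mutant BAT and 8.39, 6.54 and 6.52 in ob/ob BAT, with ob/ob array 1 far above ob/ob arrays 2 and 3. The change was -1.81 ± 0.40 (adjusted p = 0.0101), and -1.19 without ob/ob BAT array 1. Of 36 cell cycle genes 11 fell (30.6%, against 7.32% of genes with a mean BAT signal of 5 to 6) and none rose. In this list 3 of the 36 were above the highest control on any BAT array. When ob/ob BAT array 1 was left out, 11 fell and 3 rose. When ob/ob BAT array 2 was left out, 18 fell, and without triple mutant BAT arrays 1, 2 and 3 in turn 5, 6 and 3 fell, and in a fit of the 6 BAT arrays alone 1 fell. With the muscle covariate 22 fell. The same ob/ob array had the lowest muscle mean and the highest macrophage mean of its group, and their part in this result was not tested.

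In the list of imprinted and growth genes 7 of 24 fell and 1 rose (29.2% and 4.17%). Of genes with a mean BAT signal of 8 to 9, where the list mean lay, 8.25% fell and 23.8% rose. Mest, an imprinted gene that goes with fat cell enlargement, had signals of 6.0, 5.92 and 6.19 in triple mutant BAT and 8.98, 8.77 and 7.97 in ob/ob BAT (-2.54 ± 0.33, adjusted p = 0.000852). Nnat, another imprinted gene of adipocytes, had 9.26, 9.37 and 9.43 in triple mutant BAT against 11.83, 11.67 and 11.80 in ob/ob BAT, a fall by 2.41 ± 0.30. Meg3, an imprinted long non-coding RNA, fell by 1.38 ± 0.16, and Dlk1, a preadipocyte factor of the same imprinted region, by 0.80 ± 0.11. Dlk1 was above the highest control on no BAT array. Of 29 adipokines and hormones 6 fell and 2 rose (20.7% and 6.90%), against 8.17% and 17.6% of genes with a mean BAT signal of 7 to 8. The number that fell was 1 without triple mutant BAT array 3 and 3 without ob/ob BAT array 2 or 3, and none rose without any 1 BAT array other than ob/ob array 2. Rbp4, the retinol-binding protein, had 10.87, 10.78 and 11.63 in triple mutant BAT against 9.79, 9.81 and 8.79 in ob/ob BAT, a rise of 3.10-fold (1.63 ± 0.48, adjusted p = 0.0361), and its call was lost with the muscle covariate and without any 1 BAT array other than ob/ob array 2. Lep, the leptin gene, had 10.70, 11.03 and 10.77 in triple mutant BAT against 11.43, 11.60 and 11.31 in ob/ob BAT (-0.61 ± 0.16, adjusted p = 0.0236), and its call was lost without ob/ob BAT array 1 or 2 and without triple mutant BAT array 1 or 3. Igf1 fell by 1.27 ± 0.29, with its call lost without triple mutant BAT array 3. Adipoq, which encodes adiponectin, was not called (0.43 ± 0.22, adjusted p = 0.218), but was in a fit of the 6 BAT arrays alone (adjusted p = 0.0351, limma). The mean of 22 adipocyte markers was 10.5 in both groups.

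Of 30 genes of glucose uptake, glycolysis and insulin action 6 rose and none fell, while 10.4% of all genes rose and 27.1% of those with a mean BAT signal of 9 to 10, where the list mean lay. The count was 4 with the muscle covariate. Pfkfb3, which makes an activator of glycolysis, had signals of 11.10, 11.15 and 10.86 in triple mutant BAT and 9.24, 9.04 and 9.46 in ob/ob BAT (1.79 ± 0.19, adjusted p = 0.000305). The insulin receptor gene Insr rose by 0.51 ± 0.10. Of 38 genes of the integrated stress and unfolded protein responses 8 rose and 4 fell (21.1% and 10.5%, median -0.01). These shares lay near the 23.8% and 8.25% of genes with a mean BAT signal of 8 to 9, where the list mean lay. Sesn2, a stress-induced sestrin, rose by 1.28 ± 0.25, and Psat1 of serine synthesis by 0.91 ± 0.18. In this list 3 genes rose without ob/ob BAT array 1, 5 without ob/ob BAT array 3 or triple mutant BAT array 1, and 4 without triple mutant BAT array 2. The number that fell was 7 without ob/ob BAT array 2, 2 without ob/ob BAT array 1 or 3 or triple mutant BAT array 3, and 1 without triple mutant BAT array 2. Gsta4, a transferase that detoxifies lipid aldehydes, had 9.59, 9.67 and 9.69 in triple mutant BAT against 7.71, 8.22 and 7.93 in ob/ob BAT, a rise by 1.70 ± 0.21. Ucp2, a carrier common in immune cells, fell by 0.94 ± 0.18. The mitochondrial chaperones Hspd1 and Hspa9 rose by 0.88 ± 0.14 and 0.55 ± 0.11. Hoxc8, a homeobox gene of white fat depots, rose by 1.29 ± 0.34 (adjusted p = 0.0245), a call lost without any 1 BAT array other than ob/ob array 2.

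The genotype effect in BAT was also set against that in WAT in the same fit. Of the genes called in BAT, 1452 were also called higher in WAT and 907 also called lower, while 84 rose in BAT and fell in WAT and 38 did the reverse. The difference between the effects was called for 3002 genes (13.9%), and for 1834 without ob/ob BAT array 3. With genotype and number as a random replicate block, a pairing of the tissues inferred from the values, it was called for 4485 genes. Of the 3760 genes called in BAT, 995 had a called difference between the tissues. In 471 of these the change was of the same sign and smaller in BAT, in 87 of the same sign and larger in BAT, and in 437 of opposite sign. Cidea changed by -0.13 in BAT and by 3.83 in WAT, where its signal averaged 9.14 in triple mutants and 5.31 in ob/ob. No ob/ob WAT array was above the highest control for Cidea, so its WAT change is no estimate of a fold. Acot11 and Hyal1 changed by more in BAT (1.83 and 1.90) than in WAT (0.58 and 0.67). Pla2g7, a phospholipase of macrophages that cleaves platelet-activating factor, had 9.89, 10.31 and 10.15 in triple mutant BAT against 9.58, 8.71 and 9.09 in ob/ob BAT. It rose by 0.99 in BAT and fell by 2.39 in WAT. Elovl3 rose in both tissues (5.05 in BAT, 6.26 in WAT), and the difference was not called without the replicate block (adjusted p = 0.0547) and was called with it (adjusted p = 0.0335). Its ob/ob signals lay below the highest control in both tissues, so these changes are no estimates of fold. Respiratory complexes II and III had a median change of 0.41 in BAT and 1.38 in WAT, with the difference called for 13 of the 14 members. The peroxins had 0.62 and 0.95, with the difference called for 1 of 18, or 2 with the block. Endothelial and vascular markers had a median of -0.38 in BAT and 0.54 in WAT, with the difference called for 18 of 26.

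**Figure D5:**
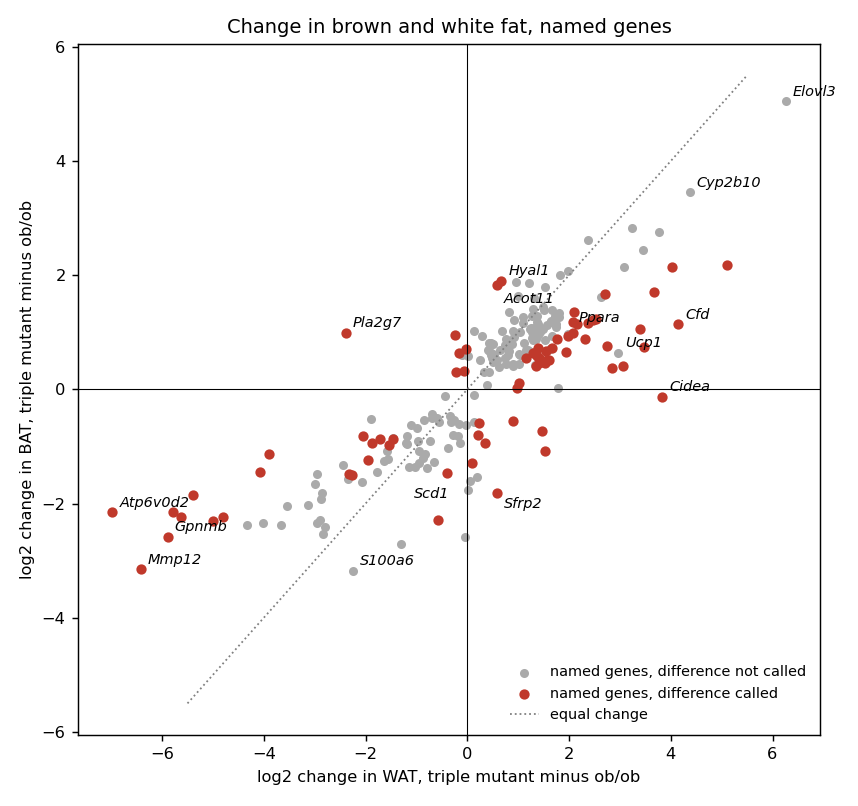
Log2 change, triple mutant minus ob/ob, in BAT (vertical axis) against WAT (horizontal axis) for the 228 named genes; red points have a called difference between the tissues and grey points do not, and the dotted line marks equal change. Cidea, Ppara and Cfd lie below the line, Mmp12, Gpnmb and Atp6v0d2 above it, and Elovl3 (5.05) and Cyp2b10 (3.46) have the largest positive changes in BAT.

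The authors' deposited table for BAT listed 1164 probe sets, 837 as higher and 327 as lower. Of those in the authors' deposited table, 1163 had the same direction here, and 1029 of them were also called here over all probe sets. In the authors' deposited table the log2 fold change was 4.50 for Elovl3, 1.90 for Echdc1 and -2.88 for S100a6, against 5.05, 2.01 and -3.18 here. For the higher genes, the authors' deposited table of terms gave 206 genes under mitochondrion (5.49-fold enrichment) and 39 under peroxisome (13.6-fold, Benjamini p = 2.73e-30). For the lower ones, the authors' deposited table of terms gave 23 genes under extracellular matrix (12.4-fold, Benjamini p = 7.89e-16).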

How the data were processed

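RNA of each sample was measured on 1 Affymetrix MoGene array. The log2 values used were the authors' deposited RMA values, with RMA and limma named without versions per the submitters' processing notes. RMA adjusts background, quantile normalizes and summarises probes, so a change is relative to all genes. Symbols and NCBIM37 positions came from the annotation in the authors' deposited expression table, and its 12 array columns, which match no sample label, were not used. The authors' deposited table of genes changed in BAT gives log2 and linear fold changes (a ratio), and their deposited tables of terms give p-values and counts of genes, per the file headers.

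Of 28350 main probe sets, 25004 named 1 gene, and the brightest stood for its gene (21651 genes, no filter on low signal). Symbols were updated through RefSeq's gene list, which held 18663 of them as given and 2243 as synonyms, and 745 kept their deposited name. Background was read from 45 antigenomic controls. The 12 arrays entered 1 limma fit (version 3.58.1, R 4.3.3; 4 group means, 8 residual degrees of freedom), two-sided, with Benjamini-Hochberg adjustment over all genes. The fit was tested on simulated data. Python 3.11.15 with matplotlib 3.10.9 drew the plots. Precision is limited by 3 arrays per group.

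The members, lists and tests were chosen with earlier results of these data known. Named genes were a fixed set, the 15 largest called rises and falls with groups apart and a higher mean of at least 6, up to 5 called members per list, and the 8 largest called differences from WAT per direction. Other list members named as markers, such as Cox8b, Zic1, Lhx8, Cpt1b, Cpt1a, Acadvl, Hadha, Acadm, Ehhadh, Adrb3, Fasn, Acaca, Itgax, Adgre1, Cd68, Col1a1, Fn1 and Pecam1, were chosen after their values were seen, and some genes picked by the rule are not reported here. Promoters were found for 102 of the 130 named genes that rose and 55 of the 80 that fell.

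BAT and WAT arrays with 1 number in a genotype shared deviations from group means (r = 0.151, 0.212 and 0.186 in triple mutants, 0.217, 0.221 and 0.156 in ob/ob, across genes). For unlike numbers r lay between -0.164 and 0.0148 in triple mutants and between -0.241 and 0.0709 in ob/ob. Pairing of the tissues by number was inferred from these values and is not stated in the labels. Across genotypes within BAT, arrays with 1 number had negative correlations (r = -0.43, -0.238 and -0.227), and a shared batch was not tested. Alternatives were a fit of the BAT arrays alone, a filter at a mean of 5, the mean of all probe sets, quantile normalization within the tissue, array weights, a trended robust prior, replicate blocks, a muscle covariate, leaving out each BAT array and, added after seeing the data, leaving out the muscle list.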

Additional observations from a re-analysis of the deposited data

Results flagged for a closer look

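Among the genes named for a fixed role, a largest change or a difference between tissues, 27 changed with genotype differently in BAT and WAT by the test of the difference itself (the BAT change minus the WAT change on the log2 scale, limma with Benjamini-Hochberg adjustment over all genes, 3 arrays per group). All 27 were also called with genotype and number as a random replicate block.

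For 9 genes with negative changes in both tissues the triple mutant signal lay below the highest antigenomic control on every BAT and every WAT array, so that the difference of the log2 changes is no estimate of a difference in fold. Atp6v0d2, a subunit of the vacuolar proton pump, averaged 5.73 in triple mutant BAT and 7.89 in ob/ob BAT, where 1 array was above the control, and 4.73 in triple mutant WAT and 11.7 in ob/ob WAT, and its difference was 4.83 (adjusted p = 0.00126). The differences of the others were 3.27 for Mmp12, 3.31 for Gpnmb, 3.55 for Il7r, 3.64 for Tm4sf19, 3.39 for Rgs1, 2.77 for Rgs18, 2.69 for Stap1 and 2.58 for Adam8. Pla2g7, at 3.38, rose in BAT and fell in WAT.

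Lipid and mitochondrial genes with a positive change in both tissues differed in the other direction. The difference was -2.35 for Ppara, -2.47 for Ppargc1a, -2.64 for Chchd10 (adjusted p = 4.32e-05), -2.74 for Pck1, -3.00 for Cfd, -2.94 for Tlcd4, -1.87 for Acsm3, -1.08 for Plin5, -0.95 for Pnpla2 and -0.89 for Lipe. Of these, Ppargc1a, Pnpla2 and Lipe were not called in BAT. Cidea, at -3.95, changed by -0.13 in BAT, which was not called, and by 3.83 in WAT. For Ppara, Ppargc1a, Tlcd4, Acsm3, Plin5 and Cidea no ob/ob WAT array was above the highest control. Their differences are therefore no estimates of a difference in fold.

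Hyal1 (1.23) and Acot11 (1.26) had larger changes in BAT. Neither was above the highest control on any ob/ob BAT array, and Acot11 was above it on no WAT array. These differences are no estimates of a difference in fold. Cbr2 (-2.62), Mgst3 (-2.18) and Sfrp2 (-2.40) fell in BAT and had positive changes in WAT, of 1.53, 1.46 and 0.58, the last of these not called. Prnd (-1.72) fell by 2.29 in BAT, and its change of -0.58 in WAT was not called. Prnd was above the highest control on 1 ob/ob BAT array and on no other array.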

How the results depend on the processing

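The counts of 3760 called genes in BAT (2251 higher, 1509 lower) stayed within 1.5 times under the BAT arrays alone (2943 called), the filter on dim genes (3916), the mean of all probe sets (3704), quantile normalization within the tissue (3319), the trended robust prior (3630), the muscle covariate (3663) and, chosen after seeing the data, leaving out the muscle list (3773). The 3002 called differences between the tissues became 3126 with the filter, 3010 with the mean of probe sets, 2908 with quantile normalization, 2844 with the trended robust prior and 2479 with the muscle covariate. Array weights gave 5478 called differences between the tissues, and 4452 called genes in BAT. With genotype and number as a random replicate block, which follows the inferred pairing of BAT and WAT arrays, 3771 genes were called in BAT and 4485 differences between the tissues. Of 246 genes examined by name, this block changed 22 calls of the difference between the tissues, all gained, and ended 2 calls in BAT, those of Esrra and Gys2. With the number as a factor over the 6 BAT arrays, a replicate block across genotypes, 1874 genes were called, 1190 higher and 684 lower. Whether arrays of 1 number shared a batch across genotypes was not tested. Leaving out 1 BAT array gave 2466 to 3787 called genes, 1587 to 2049 higher, 879 to 1738 lower and 1834 to 3345 differences between the tissues. The lowest counts of called and lower genes came without triple mutant BAT array 3, the lower count was 958 without triple mutant BAT array 2, and the lowest count of differences came without ob/ob BAT array 3; these fits have fewer arrays, and no other cause was tested. No named gene changed direction while called. Of the 228 named genes, 12 lost and 1 gained a call with the muscle covariate, 24 lost and 2 gained one in the BAT arrays alone, and 35 lost and 1 gained one without triple mutant BAT array 3. The alternatives that the design could not give are the difference between tissues from BAT arrays alone or from the number as a factor. Signal over background limits the 1628 called genes that lay below the highest control on every BAT array.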
